A study of Mus musculus with 4 samples.

Results

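Imprinted growth genes are expressed from only 1 parental copy in many tissues, and several of them set the rate of growth before and after birth. Described here are 10 such genes, Mest, Igf2, H19, Dlk1, Peg3, Plagl1, Cdkn1c, Grb10, Meg3 and Ndn, of 32285 genes counted. They were picked by name as imprinted regulators of growth, with earlier results of these data known, so their levels and ratios are given as a description without a test. The cells came from the P2 segment, the middle of the mouse digit, an amputation level that heals by fibrosis and does not regenerate. All groups were wild-type FVB/NJ mice, 8 weeks old, with males and females pooled according to the labels. The 4 groups were unamputated digits and digits 12, 17 and 28 days post-amputation (dpa), each measured by 1 single-cell RNA library of sorted live cells. With 1 library per group no difference has a replicate check, and every interval covers counting error alone. All 3 times were set against the same unamputated library, so the 3 comparisons are not independent of each other.

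Imprinted genes carry methylation marks laid down differently in egg and sperm, and these marks decide which parental copy is read. As a general rule, paternally expressed members such as Igf2, Peg3 and Mest favour growth of the offspring, and maternally expressed members such as H19, Cdkn1c and Grb10 restrain it. Many of these genes are highly expressed in fetal mesenchyme and are turned down together after birth. The mice were inbred, so the parental copies could not be told apart, and every value is the sum of both.

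The members lie in 7 regions of the mouse genome (GRCm38, GENCODE M21 gene annotation). Igf2 (ENSMUSG00000048583, chr7:142650766-142666816, minus strand), H19 (ENSMUSG00000000031, chr7:142575529-142578143, minus strand, a long noncoding RNA) and Cdkn1c (ENSMUSG00000037664, chr7:143458339-143461050, minus strand) share the end of chromosome 7. Peg3 (ENSMUSG00000002265, chr7:6703892-6730431, minus strand) and Ndn (ENSMUSG00000033585, chr7:62346569-62350262, plus strand) stand elsewhere on that chromosome. Dlk1 (ENSMUSG00000040856, chr12:109452823-109463336, plus strand) and Meg3 (ENSMUSG00000021268, chr12:109541001-109571726, plus strand, a long noncoding RNA) are neighbours on chromosome 12. Mest (ENSMUSG00000051855, chr6:30723547-30748465, plus strand), Plagl1 (ENSMUSG00000019817, chr10:13060504-13131694, plus strand) and Grb10 (ENSMUSG00000020176, chr11:11930508-12038683, minus strand) each lie alone among the members.

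Promoter windows from RefSeq (build GRCm38.p6), reaching from 250 bases before to 50 bases after a transcription start, were found for 8 of the 10 members, in 15 windows. H19 and Cdkn1c had none in the table. Peg3, Meg3 and Mest are printed because Peg3 and Meg3 were the only members with a match to a motif searched, and Mest had the lowest ratio to the unamputated library among the members at 28 dpa over all cells. Capitals in the Peg3 window mark GGGGCCCC, the core letters bound by the protein that Plagl1 encodes, and capitals in the Meg3 window mark ATGGCGG, the core of the YY1 motif. Both motifs were searched on both strands, the second also as CCGCCAT.
Peg3, chr7:6730370-6730669, minus strand: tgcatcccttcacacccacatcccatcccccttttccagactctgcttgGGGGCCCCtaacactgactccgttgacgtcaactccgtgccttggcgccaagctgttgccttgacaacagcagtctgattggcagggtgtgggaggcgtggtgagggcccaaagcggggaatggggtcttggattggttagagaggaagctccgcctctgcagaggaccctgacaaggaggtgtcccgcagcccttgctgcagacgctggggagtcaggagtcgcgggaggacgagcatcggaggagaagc
Meg3, chr12:109540746-109541045, plus strand: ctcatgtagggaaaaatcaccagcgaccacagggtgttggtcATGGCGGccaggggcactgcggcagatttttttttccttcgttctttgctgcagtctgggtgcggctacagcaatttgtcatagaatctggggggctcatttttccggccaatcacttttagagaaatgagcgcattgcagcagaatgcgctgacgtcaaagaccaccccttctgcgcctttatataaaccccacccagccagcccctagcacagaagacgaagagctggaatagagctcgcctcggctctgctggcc
Mest, chr6:30737800-30738099, plus strand: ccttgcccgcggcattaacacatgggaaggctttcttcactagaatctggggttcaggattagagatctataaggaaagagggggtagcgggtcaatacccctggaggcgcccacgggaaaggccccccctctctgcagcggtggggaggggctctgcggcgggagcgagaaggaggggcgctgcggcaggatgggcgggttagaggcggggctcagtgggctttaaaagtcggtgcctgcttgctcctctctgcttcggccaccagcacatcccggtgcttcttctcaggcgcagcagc
The GGGGCCCC match starts at base 50 of the Peg3 window, and 1.08% of 32851 promoter windows of this length hold these letters. The ATGGCGG match starts at base 43 of the Meg3 window, and 4.05% of all windows hold it. These windows hold 13, 13 and 17 CpG sites for Peg3, Meg3 and Mest, against a median of 7.0 over all windows. No binding or methylation was measured, so a match is only a description of the letters.

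The 4 deposited matrices held 16045, 8813, 10514 and 15253 cell barcodes (unamputated, 12, 17 and 28 dpa), of which 10399, 6510, 7919 and 10119 were kept as cells after filters and removal of predicted doublets. The median depth of the kept cells was lower at each later time, from 11600 UMIs (unique molecular identifiers, counted RNA molecules) in the unamputated library to 6657 at 28 dpa. Any pair of libraries shared 12 to 46 kept barcode sequences. The libraries went against the label of pooled sexes. At 12 dpa 54.2% of cells had 2 or more UMIs of Xist, the RNA of the inactive X chromosome, and none of 4 Y-linked genes, and 0% had the reverse pattern. In the other libraries 47.0% to 77.8% had the reverse, male pattern and at most 1 cell the female one, so sex and the 12 dpa time cannot be told apart. Clusters were given a class from marker genes. "Fibroblast-like" cells numbered 921, 754, 1885 and 2443. All 10 fibroblast markers had UMIs in the summed class, with a summed level of 63241, 61125, 54811 and 38703 CPM (counts per 1e6 UMIs of the class). In at least 25% of cells, 10 of the markers were detected in clusters 0 and 12, 9 in cluster 13 and 7 in cluster 17. Of these clusters only cluster 0 had a fibroblast marker among its 10 leading genes. Different clusters held most of the class at different times: cluster 13 held 458 of 754 cells at 12 dpa, and cluster 0 held 1493 of 2443 at 28 dpa. An unnamed group, cluster 14, led by the cartilage, tendon and bone matrix genes Chad, Comp, Ogn and Omd, is given separately because it carried large shares of several members.

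**Figure D1:**
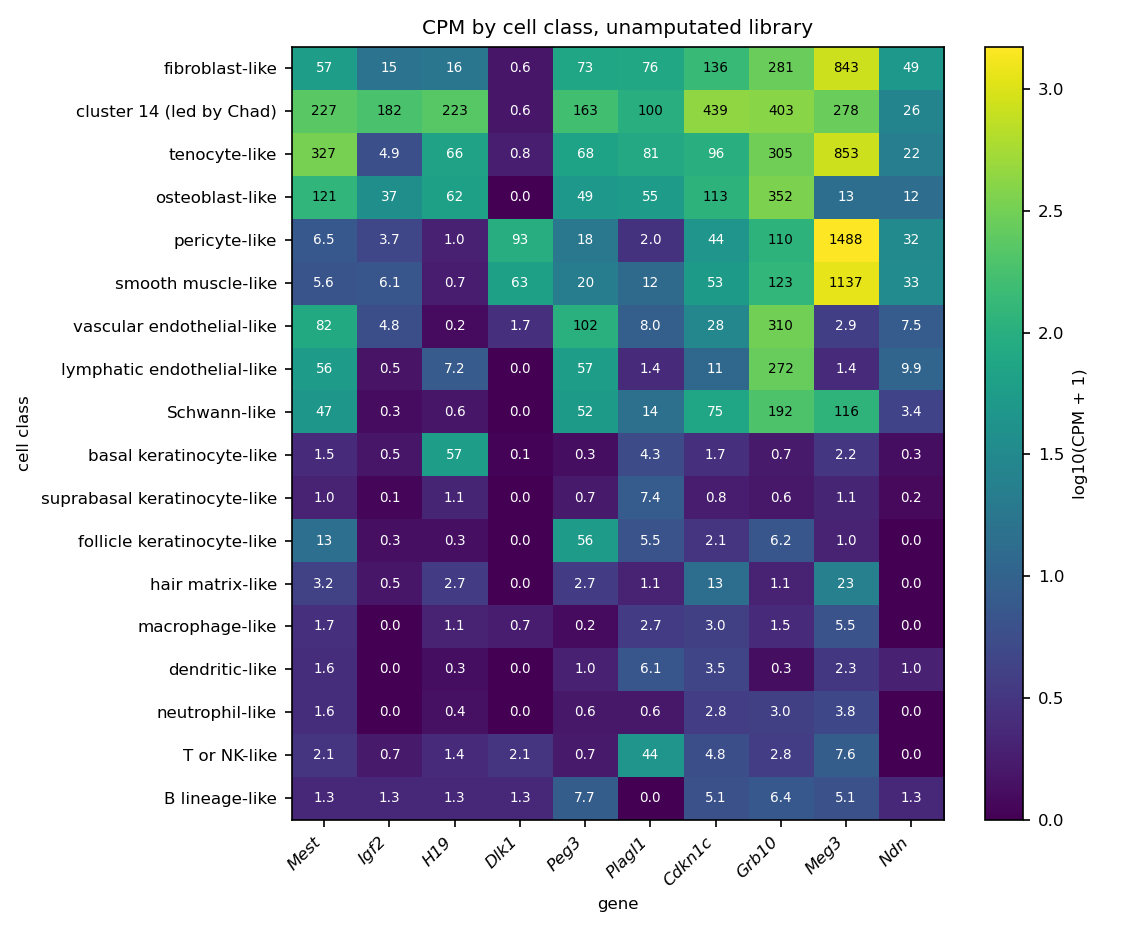
CPM of each member (columns) in each cell class of at least 50 cells (rows) of the unamputated library, with colour on a log10(CPM + 1) scale. Most members were concentrated in the connective tissue, bone and vessel wall rows, and Peg3 and Grb10 also in vascular endothelial-like cells.

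Among the classes, 8 of the 10 members had their highest mean CPM in a stromal class, with libraries weighted equally. The stromal classes were fibroblast, tenocyte, osteoblast, chondrocyte or joint lining, pericyte and smooth muscle. The share of all genes that lead in a stromal class was not counted, so 8 of 10 is only a description. Mest was highest in tenocyte-like cells (mean 167 CPM), Igf2 in osteoblast-like cells (21.04 CPM) and Cdkn1c in osteoblast-like cells (110.2 CPM). Cluster 14 has no class and was left out of this ranking. Its levels of Igf2 and Cdkn1c, given below, were above those of osteoblast-like cells in every library. Tenocytes are the matrix-making cells of tendon, and osteoblasts are the cells that lay down bone. Among the named classes, H19 was split between tenocyte-like cells (58.6 CPM) and basal keratinocyte-like cells of the epidermis (48.1 CPM). Cluster 14, outside the ranking, held 1185 of the 3493 H19 UMIs of the unamputated library. Dlk1 was held almost entirely by mural cells, the cells that wrap vessels, with 65.4 CPM in pericyte-like and 39.2 CPM in smooth muscle-like cells. Meg3 was also highest in pericyte-like cells (1132 CPM). The members that did not lead in a stromal class were Peg3 (76.2 CPM) and Grb10 (260.2 CPM), both highest in vascular endothelial-like cells. Under 9 other ways of filtering and clustering, 6 to 9 of the 10 led in a stromal class. Plagl1 differed little among fibroblast-like (48.1 CPM), tenocyte-like (45.6 CPM) and osteoblast-like cells (44.7 CPM), and Ndn was highest in fibroblast-like cells (44.7 CPM). The matrices came from reads at the 3′ end of transcripts, so levels are compared between cells for a gene and not between genes. Several members overlap other genes, such as Mest with Copg2 on the opposite strand, and how the counting used strand is not given in the sources used here.

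Immune cells, which should lack most of these transcripts, gave the level that free RNA can leave in a droplet. In macrophage-like cells Mest ranged from 0 to 2.23 CPM over the libraries, Igf2 from 0 to 0.327, H19 from 0 to 3.05 and Meg3 from 0 to 8.42. In the other immune classes, from 9 or fewer UMIs each, the highest values were 7.40 CPM for Mest and 10.5 CPM for H19, both in T or NK-like cells, and 2.47 CPM for Igf2 and 22.2 CPM for Meg3, both in neutrophil-like cells. Values for a class up to these maxima are read as background, which holds for the 2.92 to 9.99 CPM of Meg3 in vascular endothelial-like cells. It also holds for Mest at 28 dpa in fibroblast-like and tenocyte-like cells. For H19 it holds at 17 and 28 dpa in fibroblast-like cells and at 28 dpa in osteoblast-like cells. Ratios there rest on a level within this range. The maxima were taken over all libraries, so they can lie above the background of a given library. At 28 dpa basal keratinocyte-like cells had 0 Mest UMIs. They were 433 cells with a UMI of the proliferation genes Mki67 or Top2a and 362 without (upper limits 0.688 and 1.21 CPM).

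At 28 dpa the summed level of the 10 members over all kept cells was 319.9 CPM, against 745.4 CPM in unamputated digits, 800.6 at 12 dpa and 571.0 at 17 dpa. Much of this sum was Meg3 (340.0 CPM unamputated and 157.8 at 28 dpa) and Grb10 (153.0 and 66.4 CPM). At a ratio to unamputated of 0.5 or less stood 2 of 10 members at 12 dpa (Igf2 and Dlk1), 1 at 17 dpa (Mest) and 8 at 28 dpa (all except Cdkn1c and Ndn). Of all genes of at least 5 CPM, 3.22% reached that ratio at 12 dpa, 2.4% at 17 dpa and 6.82% at 28 dpa. Giving each cell the same weight, or thinning each to 2000 UMIs, left 3 of 10 at 28 dpa. In such sums over a library, fewer cells of a type and less RNA per cell cannot be told apart.

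The makeup of the libraries differed, with tenocyte-like cells at 4.33%, 20.8%, 3.38% and 3.68% of kept cells in the unamputated, 12, 17 and 28 dpa libraries. Mest over all kept cells was 64.3, 116.6, 16.8 and 4.38 CPM in the same order, and tenocyte-like cells gave 78.6% of its UMIs at 12 dpa. Reweighting each cluster to its unamputated share took the 12 dpa ratio of Mest from 1.81 to 0.935 and that of H19 from 1.17 to 0.792. At the unamputated makeup neither gene was above its unamputated level at 12 dpa. The same reweighting left Igf2 at 12 dpa low (0.195 as measured, 0.277 reweighted). At 28 dpa it moved Mest from 0.0682 to 0.11, Igf2 from 0.329 to 0.525, H19 from 0.475 to 0.608, Grb10 from 0.434 to 0.531 and Cdkn1c from 0.575 to 0.715. Dlk1 (0.263), Peg3 (0.401), Plagl1 (0.446) and Meg3 (0.432) stayed at 0.5 or less after it, and Ndn went from 1.15 to 0.819. The clusters used held 88.8% of unamputated UMIs at 12 dpa and 96.2% at 28 dpa.

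Within fibroblast-like cells, 9 of the 10 members had at least 5 CPM on average, and Dlk1 did not, with 10, 2, 5 and 2 UMIs. At 12 dpa 1 of the 9, Igf2, was at 0.5 or less (background 3.34% of genes). At 17 dpa there were 4, Mest, H19, Plagl1 and Meg3 (background 2.07%). Of these, H19 lay within the background range, and Plagl1 was at 0.5 or less in 9 of 20 alternative processings, Meg3 in 16, H19 in 19 and Mest in all 20. At 28 dpa there were 8, all except Ndn (background 8.27%). None was at 2 or more at any time (background 1.13%, 0.963% and 2.92%). From 12 to 28 dpa the median ratio of the 9 was 0.832, 0.599 and 0.237, where that of all genes was 0.974, 0.980 and 0.910. At 28 dpa the 5th to 95th percentile of all genes ran from 0.420 to 1.79, and 8 members lay below its lower end. Because the members were chosen with these values known, the counts say nothing further about imprinted genes in general.

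Depth and purity moved with time in the same cells. The median UMIs per fibroblast-like cell were 18336, 11662, 11585 and 8668. The 7 suprabasal keratinocyte markers, all detected, summed to 158.5, 187.9, 269.0 and 643.6 CPM in these cells, and the fibroblast marker sum given above was lowest at 28 dpa. The 8 osteoblast markers, all detected, summed to 308.4, 403.9, 124.1 and 91.3 CPM. The part of the marker sums in the members' ratios was not tested. With cells of at least 5000 UMIs alone, the count at 28 dpa was 8 again.

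**Figure D2:**
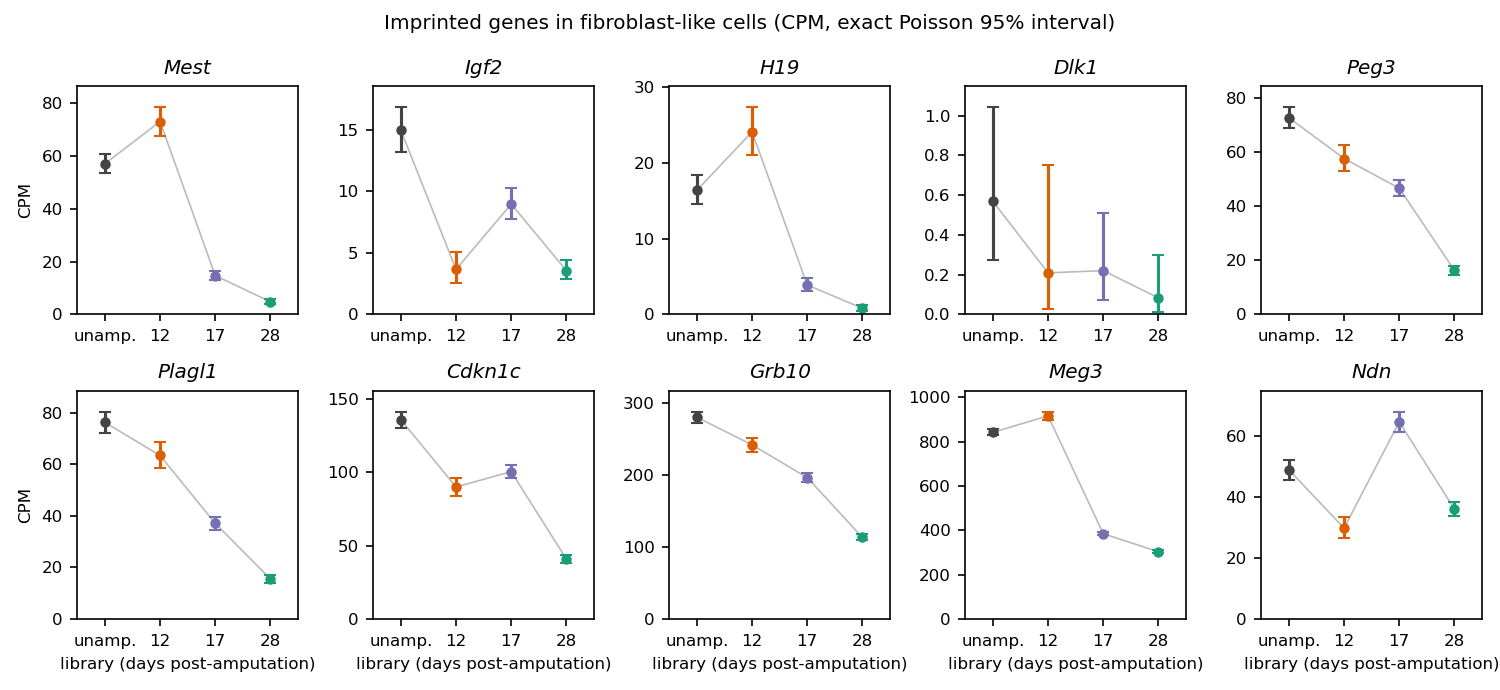
CPM of each member in fibroblast-like cells (vertical axes, a panel per gene) in the unamputated, 12, 17 and 28 dpa libraries, with exact Poisson 95% intervals of counting. All members but Ndn were at their lowest in the 28 dpa library, while Mest, H19 and Meg3 were at their highest at 12 dpa.

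Igf2 encodes insulin-like growth factor 2, a secreted growth factor of fetal life. Its level in fibroblast-like cells was 14.95, 3.65, 8.96 and 3.55 CPM in the 4 libraries in order of time, from 263, 35, 204 and 86 UMIs. The low values were thus at 12 and 28 dpa, and these stood at ratios of 0.244 (95% interval 0.166 to 0.348) and 0.237 (0.184 to 0.304), and 17 dpa lay between (0.599, 0.497 to 0.722). With each cell thinned to 2000 UMIs the 28 dpa ratio was 0.617. Most Igf2 was not in fibroblast-like cells. Cluster 14 alone held 57.5%, 21.5%, 63.8% and 35.8% of all Igf2 UMIs, at 181.7, 38.8, 146.2 and 83.9 CPM, lowest at 12 dpa. The fibroblast markers of cluster 14 summed to 72291, 67223, 55111 and 34625 CPM and its chondrocyte or joint lining markers to 1450, 1380, 2220 and 5794 CPM, and their part in its ratios was not tested. Osteoblast-like cells had 36.7, 20.7 and 5.75 CPM in the unamputated, 17 and 28 dpa libraries, a ratio of 0.157 (0.0862 to 0.265) at 28 dpa, and at 12 dpa they were too few for a value. In tenocyte-like cells the order was the reverse at 28 dpa, from low counts (4.89 CPM unamputated, 8.49 at 28 dpa, ratio 1.74, 1.12 to 2.66).

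H19, the noncoding RNA next to Igf2 that is read from the maternal copy and shares its enhancers, did not follow Igf2 at 12 dpa in fibroblast-like cells. In fibroblast-like cells it was at 16.4, 24.1, 3.87 and 0.784 CPM in the unamputated, 12, 17 and 28 dpa libraries. The 12 dpa library was the highest (ratio 1.47, 1.23 to 1.76, above 1 in 19 of 20 alternative processings) and the 28 dpa library the lowest (0.0479, 0.0284 to 0.0762), from 19 UMIs. The 17 and 28 dpa levels both lay within the background range. Of the UMIs of Igf2 and H19 together, Igf2 made up 47.7%, 13.2%, 69.9% and 81.9% in fibroblast-like cells. In tenocyte-like cells H19 stayed between 45.5 and 65.8 CPM in all 4 libraries, and its ratio at 28 dpa was 0.881 (0.760 to 1.02). In osteoblast-like cells it was at 61.9, 18.7 and 6.90 CPM (ratio 0.111 at 28 dpa, 0.0652 to 0.179). In basal keratinocyte-like cells H19 was at 56.9, 20.8, 54.6 and 60.1 CPM, lowest at 12 dpa. These cells held 54.9% of all H19 UMIs at 28 dpa. H19 at 28 dpa was thus very low in fibroblast-like and osteoblast-like cells and near its unamputated level in tenocyte-like and basal keratinocyte-like cells.

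Mest, also known as Peg1, encodes a membrane enzyme of the hydrolase fold and is read from the paternal copy in mesoderm. In tenocyte-like cells it was at 327.4 CPM (95% interval 318 to 337) without amputation, and at 269.5, 68.7 and 3.88 (2.22 to 6.30) CPM in the 3 later libraries. At 28 dpa 16 UMIs were counted in 372 cells. The 28 dpa ratio was 0.0119 (0.00677 to 0.0193), and the 28 dpa level lay within the background range. The marker sums of this class differed between the libraries: its tenocyte markers summed to 1857 CPM unamputated and 4590 CPM at 28 dpa, its chondrocyte or joint lining markers to 740.4 and 3766 CPM, and its smooth muscle markers to 766.0 and 170.8 CPM. The proliferation genes Mki67 and Top2a stood at ratios of 0.236 and 0.244 there at 28 dpa, and the part of these in the Mest ratio was not tested. Cluster 2 alone, most of the class, had 337.5, 282.7, 72.8 and 3.96 CPM of Mest. Fibroblast-like cells had 57.1, 73.1, 14.7 and 4.75 CPM, with ratios of 1.28 (1.16 to 1.41), 0.257 (0.226 to 0.291) and 0.0832 (0.0680 to 0.101). The 12 dpa ratio was above 1 in 15 of 20 alternative processings and not in the others. A Mest UMI was found in 28.4%, 23.7%, 10.4% and 3.32% of fibroblast-like cells as counted, and in 7.83%, 9.88%, 3.09% and 1.05% with every cell thinned to 2000 UMIs and 14, 15, 39 and 56 shallower cells left out. In macrophage-like cells, with median depths of 10589.5, 8404.5, 7506.5 and 5451 UMIs, the thinned shares were 0.410%, 0.673%, 0% and 0%. The last, from 95 cells, allows a share of up to 3.81%. These cells were too few to say whether the 28 dpa share in fibroblast-like cells was above background. Osteoblast-like cells had 121.4, 27.1 and 7.66 CPM in the unamputated, 17 and 28 dpa libraries (28 dpa ratio 0.0631, 0.0383 to 0.0983). Vascular endothelial-like cells had 82.5, 107.5, 27.3 and 14.98 CPM (28 dpa ratio 0.182, 0.132 to 0.244). So Mest was lower at 17 dpa and lower again at 28 dpa in each of these 4 classes, and at 12 dpa it was above unamputated in the fibroblast-like and vascular endothelial-like classes. Cluster 14 kept 53.4 CPM at 28 dpa from 226.6 unamputated, and Schwann-like cells, the glia of nerves, kept 33.7 from 46.8.

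**Figure D3:**
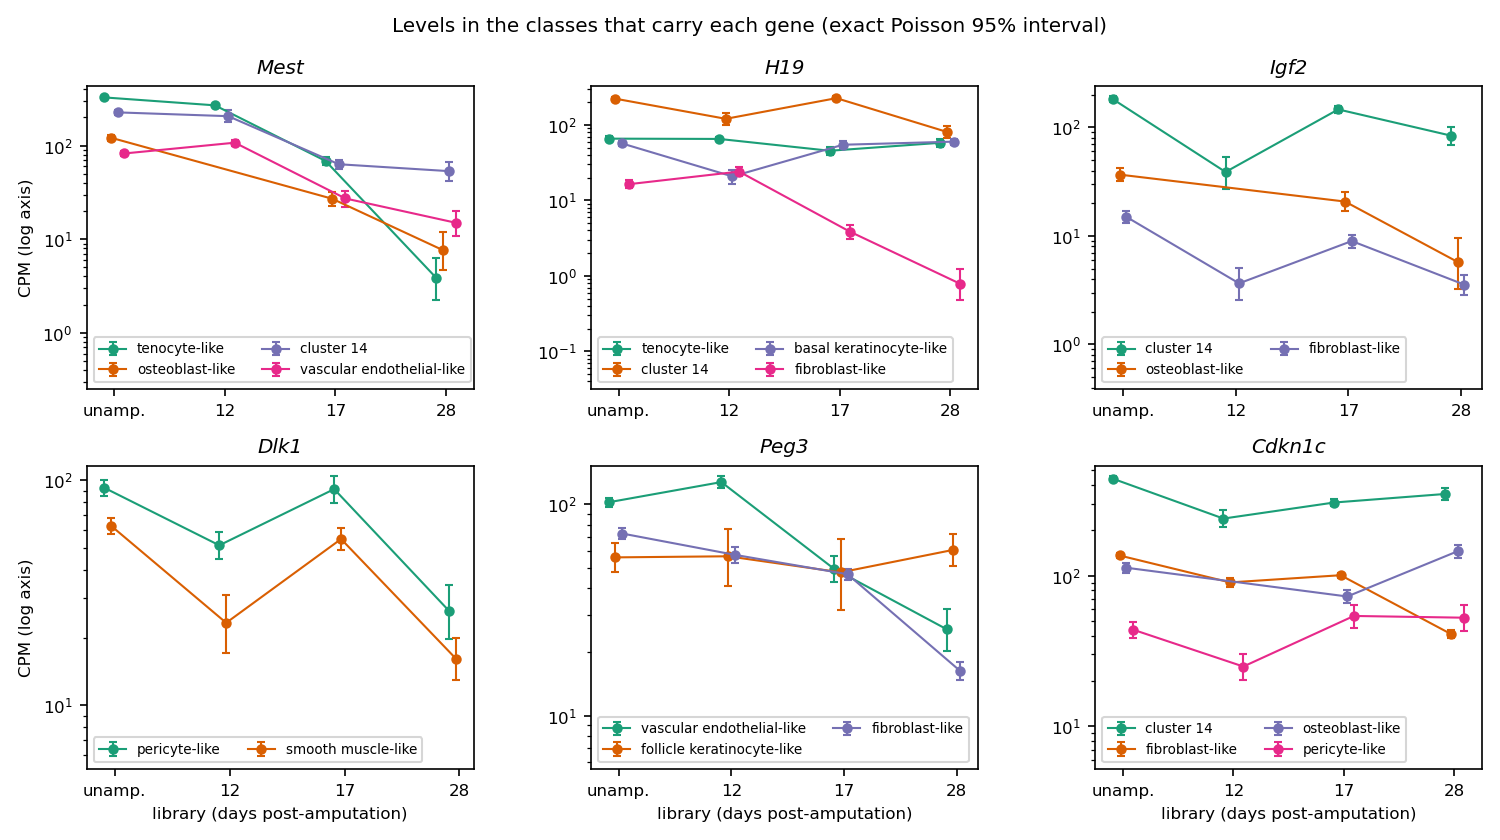
CPM on a log axis (vertical) of Mest, H19, Igf2, Dlk1, Peg3 and Cdkn1c in the cell classes that carry them, in the unamputated, 12, 17 and 28 dpa libraries, for classes of at least 50 cells. Mest in tenocyte-like cells spans 327.4 to 3.88 CPM, while H19 in the same cells stays between 45.5 and 65.8 CPM.

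Cdkn1c encodes p57, an inhibitor of cyclin-dependent kinases that is read from the maternal copy, and Grb10 encodes an adaptor that binds the insulin and IGF1 receptors and dampens their signal. Cdkn1c in fibroblast-like cells was at 136.0, 90.1, 100.6 and 40.9 CPM (28 dpa ratio 0.301, 0.279 to 0.324), so the 28 dpa library was again lowest. The 12 dpa order depended on the cluster: the class ratio was 0.663, that of cluster 0 was 1.36 (1.18 to 1.56), from 68.9 to 93.4 CPM, and that of cluster 13 was 0.865 (0.764 to 0.980). Over the 20 alternative processings the 12 dpa ratio ran from 0.374 to 1.36. Cluster 12, which had 267.1 CPM unamputated, had 9 cells at 12 dpa. At 17 dpa cluster 0 stood at 0.991 (0.883 to 1.11), against 0.740 over the class. Osteoblast-like cells were the other way round, at 112.8, 72.7 and 145.2 CPM in the unamputated, 17 and 28 dpa libraries (28 dpa ratio 1.29, 1.13 to 1.46). Pericyte-like cells had 43.9, 24.9, 54.0 and 52.6 CPM, and smooth muscle-like cells 52.9, 42.2, 56.7 and 59.5 CPM. In vascular endothelial-like cells the 28 dpa ratio was 1.33 (1.08 to 1.64). Low Cdkn1c at 28 dpa was therefore seen in fibroblast-like and tenocyte-like cells (31.5 CPM against 96.5 unamputated) and in none of these other 4 classes.

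As a kinase inhibitor, Cdkn1c was also compared between cells with and without a UMI of the proliferation genes Mki67 or Top2a. Fibroblast-like cells with such a UMI numbered 66, 77, 80 and 105 in the unamputated, 12, 17 and 28 dpa libraries. Their Cdkn1c level was 123.9, 67.0, 72.7 and 45.2 CPM, and that of the other cells was 137.0, 93.5, 102.2 and 40.7 CPM. At 12 and 17 dpa the cells with the proliferation genes were lower and the intervals did not overlap, and in the other libraries they overlapped. Tenocyte-like cells with such a UMI had 45.2, 45.4, 61.6 and 18.6 CPM against 115.9, 130.1, 76.3 and 32.4 CPM in the others, with overlapping intervals at 17 and 28 dpa. Vascular endothelial-like cells went the other way at 28 dpa, with 78.7 CPM (51.0 to 116.2) in the cells with such a UMI and 32.8 CPM (26.3 to 40.4) in the others. The first value came from 25 UMIs in 44 cells. In the unamputated, 12 and 17 dpa libraries this class had 30.2, 32.7 and 40.5 CPM against 27.6, 31.5 and 44.2 CPM, with overlapping intervals. A single UMI put a cell in the group, and what share of these UMIs was free RNA was not tested.

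Grb10 in fibroblast-like cells was at 280.5, 242.2, 196.7 and 113.5 CPM, with a 28 dpa ratio of 0.405 (0.386 to 0.424). The clusters did not share this order, with 297.4, 150.04, 216.5 and 113.6 CPM in cluster 0 and 323.1, 308.9, 358.3 and 225.0 CPM in cluster 13, where the 17 dpa ratio was 1.11 (1.01 to 1.21). Both were lowest at 28 dpa. Vascular endothelial-like cells had 310.0, 258.3, 279.9 and 192.7 CPM (28 dpa ratio 0.622, 0.570 to 0.678). Osteoblast-like cells had 351.9, 248.7 and 130.7 CPM in the unamputated, 17 and 28 dpa libraries (28 dpa ratio 0.371, 0.330 to 0.417). The 28 dpa library was the lowest in these 3 classes, in tenocyte-like cells (158.7 CPM at 28 dpa, 304.9 unamputated) and in pericyte-like cells (49.2 and 110.2 CPM).

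Plagl1 and Peg3 encode zinc finger proteins read from the paternal copy, and Plagl1 is known to regulate other imprinted genes. Plagl1 in fibroblast-like cells was at 76.2, 63.4, 37.1 and 15.6 CPM, with ratios of 0.832 (0.755 to 0.916), 0.487 (0.446 to 0.531) and 0.204 (0.182 to 0.229). Tenocyte-like cells had 81.1, 48.7, 36.7 and 15.8 CPM in the same order (28 dpa ratio 0.195, 0.149 to 0.25). Over each class the level was lower at each later time, while cluster 0 alone had 78.3, 29.8, 30.7 and 8.94 CPM, about alike at 12 and 17 dpa. Osteoblast-like cells kept more, with 55.4 CPM unamputated and 28.0 CPM at 28 dpa (ratio 0.505, 0.386 to 0.653). Outside the stroma, T or NK-like cells had 44.1, 16.7, 27.4 and 34.6 CPM of Plagl1.

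Peg3 in fibroblast-like cells was at 72.8, 57.7, 46.7 and 16.3 CPM (28 dpa ratio 0.223, 0.199 to 0.25), and in cluster 0 alone at 57.6, 24.0, 37.8 and 13.04 CPM. Vascular endothelial-like cells, its leading class, had 102.3, 127.5, 49.5 and 25.6 CPM (28 dpa ratio 0.251, 0.197 to 0.315), highest at 12 dpa. Within this class the vascular endothelial markers summed to 6599, 6115, 6449 and 6092 CPM. Its fibroblast markers summed to 218.1, 1022, 675.9 and 705.1 CPM, its smooth muscle markers to 64.3, 49.9, 217.3 and 337.5 CPM and its pericyte markers to 31.0, 32.3, 45.3 and 110.2 CPM, and their part in the ratios of this class was not tested. Follicle keratinocyte-like cells did not share this, at 56.1, 56.8, 47.7 and 60.9 CPM. Pericyte-like cells did not either, with a 28 dpa ratio of 0.912 (0.598 to 1.36) from 17.6 CPM unamputated.

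Ndn encodes necdin, a paternally expressed protein of the MAGE family that is known to restrain cell growth. It was the member that stood apart in fibroblast-like cells, at 48.8, 29.7, 64.4 and 36.0 CPM. Its ratios were 0.609 (0.531 to 0.698), 1.32 (1.21 to 1.44) and 0.737 (0.670 to 0.811), so over the class its lowest library was 12 dpa. Within clusters the order differed: cluster 0 had 53.6, 41.8, 52.0 and 26.8 CPM and cluster 13 had 26.7, 18.9, 26.8 and 12.5 CPM, both lowest at 28 dpa, while cluster 17 had 98.8, 61.0, 101.5 and 94.4 CPM. Cluster 12, with too few cells at 12 dpa, had 47.4, 75.8 and 50.7 CPM in the other libraries. At 17 dpa its ratio was 1.60 (1.35 to 1.90), and those of clusters 0, 13 and 17 were 0.971, 1.00 and 1.03, each with an interval that held 1. Cluster 13 held most of the class at 12 dpa and cluster 0 at 28 dpa. The 17 dpa ratio was above 1 in 19 of 20 alternative processings. Smooth muscle-like cells had 32.6, 26.7, 42.0 and 39.4 CPM, and pericyte-like cells 32.1, 20.3, 31.0 and 40.4 CPM. Over both mural classes 12 dpa was again the lowest library.

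Dlk1 and Meg3 sit in the same cluster on chromosome 12. Dlk1, read from the paternal copy, encodes a membrane protein related to Notch ligands that holds back the maturation of precursor cells. In the unamputated library 46.0% of its UMIs came from pericyte-like and 48.8% from smooth muscle-like cells. Pericyte-like cells had 92.6 (85.2 to 100.5), 51.4, 91.4 and 26.3 CPM, with ratios of 0.555 (0.470 to 0.654), 0.987 (0.840 to 1.16) and 0.284 (0.211 to 0.376). Smooth muscle-like cells had 62.7, 23.3, 54.9 and 16.1 CPM, with ratios of 0.371 (0.271 to 0.499), 0.875 (0.759 to 1.01) and 0.257 (0.203 to 0.322). Over each mural class Dlk1 was thus low at 12 dpa and lowest at 28 dpa. The smooth muscle-like class holds 2 clusters, and at 17 dpa cluster 7 stood at 0.971 (0.831 to 1.13) and cluster 8 at 0.580 (0.401 to 0.826), which had 0.664 (0.375 to 1.1) at 12 dpa. In cluster 7 the 12 and 28 dpa levels were about alike, at 27.9 and 28.6 CPM. The pericyte markers summed to 16588, 11318, 16744 and 14736 CPM in pericyte-like cells and to 13432, 9451, 11308 and 9498 CPM in smooth muscle-like cells, lower at 12 dpa than in any other library in both, and their part in the Dlk1 ratios was not tested. The pericyte-like cells numbered 601, 507, 401 and 468, and the smooth muscle-like cells 841, 260, 846 and 1179.

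Meg3, read from the maternal copy, is a long RNA that is not translated. In fibroblast-like cells it was at 842.7, 917.0, 385.3 and 303.7 CPM, with ratios of 1.09 (1.06 to 1.12), 0.457 (0.445 to 0.469) and 0.360 (0.35 to 0.371). The 12 dpa ratio was above 1 in 12 of 20 alternative processings, and in cluster 0 alone it was 0.453. Pericyte-like cells had 1488, 1353, 1017 and 672.3 CPM, smooth muscle-like cells 1137, 920.4, 704.8 and 429.9 CPM, and tenocyte-like cells 852.7, 403.1, 483.5 and 195.1 CPM. Pericyte-like and smooth muscle-like cells were lower at each later time, and tenocyte-like cells were already low at 12 dpa (ratio 0.473, 0.460 to 0.486). Rian, another noncoding RNA of the cluster, was at 139.4, 150.6, 74.2 and 53.3 CPM in fibroblast-like cells. Meg3 made up 85.8%, 85.9%, 83.9% and 85.1% of the UMIs of both RNAs there, so the pair kept nearly the same proportion in every library.

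**Figure D4:**
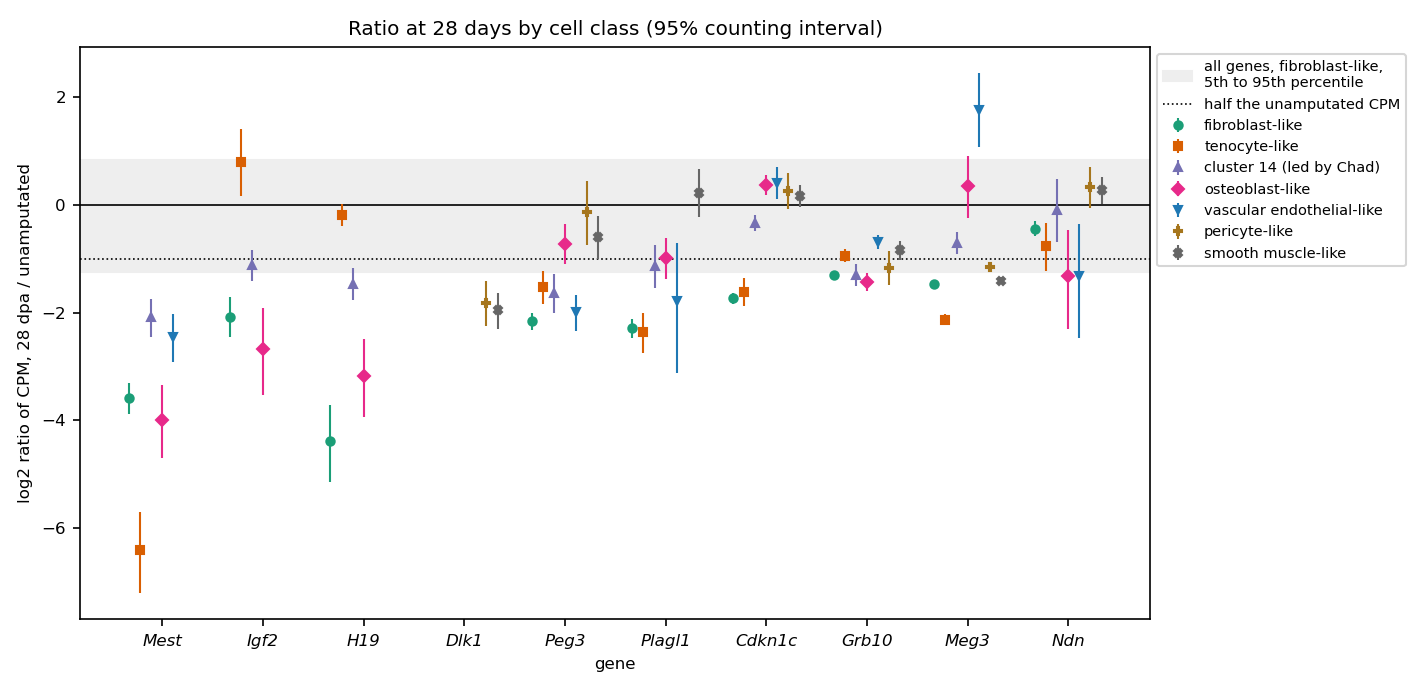
Log2 ratio of CPM at 28 dpa over unamputated (vertical axis) for each member (horizontal axis) in 6 cell classes and cluster 14, with exact conditional 95% intervals, for members of at least 5 CPM; the grey band is the 5th to 95th percentile of all genes in fibroblast-like cells. Mest in tenocyte-like cells is the lowest point, and Igf2, Plagl1, Cdkn1c, Meg3 and Ndn have points on both sides of 0. The Meg3 points above 0, in osteoblast-like and vascular endothelial-like cells, rest on levels within the background range.

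At 28 dpa the other large stromal and vascular classes had fewer members at 0.5 or less. Tenocyte-like cells had 1 of 9 at 12 dpa (Meg3, background 1.51%), 3 at 17 dpa (Mest, Peg3 and Plagl1, 1.53%) and 5 at 28 dpa (those 3, Cdkn1c and Meg3, 6.8%). Osteoblast-like cells had 2 of 9 at 17 dpa (Mest and H19, 4.28%) and 5 at 28 dpa (Mest, Igf2, H19, Grb10 and Ndn, 10.6%). Vascular endothelial-like cells had 0 of 7 at 12 dpa (1.0%), 2 at 17 dpa (Mest and Peg3, 1.27%) and 4 at 28 dpa (Mest, Peg3, Plagl1 and Ndn, 3.88%). Pericyte-like cells had 0 of 6 at 12 and 17 dpa (2.17% and 1.43%) and 3 at 28 dpa (Dlk1, Grb10 and Meg3, 4.98%). Smooth muscle-like cells had 1 of 7 at 12 dpa (Dlk1, 2.73%), 0 at 17 dpa (0.909%) and 2 at 28 dpa (Dlk1 and Meg3, 3.53%). At 2 or more stood Meg3 in osteoblast-like cells at 17 dpa (2.62%) and in vascular endothelial-like cells at 12 and 28 dpa (0.778% and 1.87%), at levels of 29.1, 7.76 and 9.99 CPM, of which the last 2 lay within the background range. All 3 were set against unamputated levels within that range, 12.98 CPM in osteoblast-like and 2.92 CPM in vascular endothelial-like cells. In each of these 5 classes the count was largest at 28 dpa, and no member was at 0.5 or less in all of them. Whether the classes differ was not tested.

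The fibroblast-like class was made of 4 clusters, with different counts of members at 0.5 or less. Cluster 0 (307, 258, 733 and 1493 cells) had 4 members at 0.5 or less at 12 dpa (Igf2, Peg3, Plagl1 and Meg3, background 5.39%), 4 at 17 dpa (1.18%) and 8 at 28 dpa (all except Ndn, 4.92%). Cluster 13 (274, 458, 283 and 146 cells) had 1 at 12 dpa (Igf2, 1.94%), 2 at 17 dpa (Mest and H19, 3.74%) and 5 at 28 dpa (Mest, H19, Peg3, Cdkn1c and Ndn, 14.4%). Its 146 cells at 28 dpa had a median depth of 3209.5 UMIs, so these 5 calls rest on few UMIs. Cluster 12 had 231, 458 and 503 cells in the unamputated, 17 and 28 dpa libraries and too few at 12 dpa, with 3 members at 17 dpa (4.19%) and 5 at 28 dpa (Mest, H19, Peg3, Cdkn1c and Grb10, 8.36%). Cluster 17 (109, 29, 411 and 301 cells) had 1 member at each time, Cdkn1c at 12 dpa (18.1%), Igf2 at 17 dpa (2.61%) and Peg3 at 28 dpa (5.29%). In its 29 cells at 12 dpa, 4 members were at 2 or more (Igf2, H19, Grb10 and Meg3, 8.54%), with a median ratio of 1.79 over its 9 members. Its H19 was at 1.89 CPM unamputated, within the background range. The counts at 28 dpa thus ran from 8 in cluster 0, which held most fibroblast-like cells at that time, to 1 in cluster 17, and the difference was not tested.

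Mest was at 37.9, 32.1, 7.51 and 1.63 CPM in cluster 0, at 97.9, 102.1, 15.2 and 7.14 CPM in cluster 13, and at 49.7, 54.9, 44.0 and 26.6 CPM in cluster 17. Igf2 at 28 dpa was at 1.18 CPM in cluster 0, from 20.2 unamputated and within the background range, as was Mest there and in cluster 13, and at 13.8 CPM in cluster 12, from 15.8 unamputated. Meg3 in cluster 13 was at 1249, 1264, 976.9 and 971.5 CPM, and Cdkn1c in cluster 17 was at 178.0 CPM unamputated and 178.6 CPM at 28 dpa. Cluster 14, outside the class, had 3 of its members at 0.5 or less at 12 dpa (Igf2, Meg3 and Ndn, 6.62%), 1 at 17 dpa (Mest, 2.35%) and 6 at 28 dpa (6.32%), while its Cdkn1c was at 439.3, 238.9, 305.2 and 347.6 CPM.

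Genes that act beside the members were taken from fixed lists and read in fibroblast-like cells. Of 61 other imprinted genes, 30 had at least 5 CPM on average. At a ratio of 0.5 or less were 2, 1 and 8 of the 30 in the 12, 17 and 28 dpa libraries, where the shares of all genes were 3.34%, 2.07% and 8.27%. Their median ratios were 0.873, 0.903 and 0.747. Named after their values were seen, being under 20 CPM unamputated, Gatm (0.0859) and Ampd3 (0.257) were those at 12 dpa and Mirg (0.310) that at 17 dpa. Those at 28 dpa with at least 20 CPM unamputated were Kcnq1ot1 (71.7 CPM unamputated, 30.1 at 28 dpa), the noncoding RNA of the Cdkn1c domain, Airn (436.4 and 168.8 CPM) and Igf2r (142.1 and 67.8 CPM), a noncoding RNA and its overlapping receptor gene, Rian (ratio 0.383), and Sfmbt2 (27.2 and 8.83 CPM). At 2 or more stood 1 of the 30 at 28 dpa, Mcts2 (2.54, from 4.26 CPM unamputated), also named after its value was seen. In tenocyte-like cells 5 of 28 were at 0.5 or less at 28 dpa (6.8% of all genes), with a median ratio of 0.872. Vascular endothelial-like cells had 5 of 29 at 28 dpa (3.88% of all genes). Pericyte-like cells had 6 of 32 (4.98%) and smooth muscle-like cells 3 of 31 (3.53%).

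Of 10 genes of IGF receptors and signalling, 7 had the minimum, and 4 were at 0.5 or less at 28 dpa (8.27% of all genes), with a median ratio of 0.5. In tenocyte-like cells it was 1 of 8 (6.8% of all genes), with a median of 0.675, and 1 of 8 at 17 dpa (1.53%). The 4 in fibroblast-like cells were Igf2r (0.477), which clears Igf2 from the cell surface and stands on both lists, Irs1 (68.9 CPM unamputated, 34.4 at 28 dpa), an adaptor of insulin and IGF receptors, Grb14 (0.374) and Igf2bp2 (0.419). Igf2bp2 was at 2.02 at 12 dpa, and it and Grb14, both under 20 CPM unamputated, were named after their values were seen. Of 12 genes that maintain imprints, such as methyltransferases and zinc finger partners, 9 had the minimum and none was at 0.5 or less at any time in fibroblast-like cells, with a 28 dpa median of 0.762. At 28 dpa 1 of 10 was in tenocyte-like cells (Uhrf1, 0.167 from 5 UMIs, against 6.8% of all genes). Vascular endothelial-like cells had 2 of 12 at 28 dpa (3.88%) and 1 of 12 at 17 dpa (1.27%). Pericyte-like cells had 1 of 11 at 12 dpa (2.17%). Of 8 genes of Notch signalling and its partners, 5 had the minimum and none was at 0.5 or less in fibroblast-like cells, with a 28 dpa median of 0.738. In tenocyte-like cells 1 of 5 was at 28 dpa (Notch1, 0.381, against 6.8% of all genes), and it and Uhrf1 were named after their values were seen. At 12 dpa 1 of 5 was in vascular endothelial-like cells (1.0%), 1 of 6 in pericyte-like (2.17%) and 1 of 6 in smooth muscle-like cells (2.73%). Of 6 other cell cycle inhibitors, 5 had the minimum, none was at 0.5 or less, and Cdkn1a, which encodes the inhibitor p21, was at 50.5, 43.6, 119.5 and 247.6 CPM. Cdkn1a was thus highest (ratio 4.91) in the library in which Cdkn1c was lowest.

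Across 66 combinations of class and library of at least 50 cells, the genes whose log2(CPM + 1) followed each member most closely were named by Pearson's r, as a description. The search took genes of at least 20 CPM in any combination and left out the members, Y-linked genes, Xist and Tsix. The combinations share libraries, cell classes and depth. Meg3 was most like Rian (r = 0.96), Dlk1 most like Catsperb (0.95), Grb10 most like Lama4, Fkbp10 and Fbxl7 (0.93 each), and Ndn most like Usp13 (0.93). Peg3 was most like Fbxl7 (0.88), Cdkn1c like Mxra8 and Sparc (0.87 each), Mest like Prkd1 (0.84) and Igf2 like Triqk, Sulf1 and Srpx (0.84 each). H19 (Wnt16, 0.75) and Plagl1 (Myo16, 0.77) had no gene as close. Among the members, Meg3 and Ndn were the most alike (0.85), and H19 and Dlk1 the least (-0.12).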

How the data were processed

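Cells of 4 digit samples were measured with 10x Chromium 3′ v3 chemistry, per the labels' protocols. The authors deposited raw UMI counts per gene and cell barcode, made with Cell Ranger 7.1.0, per the file headers, on mm10, per the submitters' processing notes. The gene annotation, strand and intron settings are not given in the sources used here.

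Kept barcodes had 500 or more genes, 1000 or more UMIs and 10% or less mitochondrial UMIs. Doublets were removed as the highest Scrublet scores, at 0.8% per 1000 barcodes, which took 7.05% to 12.8% of barcodes. Scrublet's own threshold would have marked 2.03% to 4.24%. Clusters came from scanpy 1.11.5 (Python 3.11.15, numpy 2.4.6, scikit-learn 1.9.0, leidenalg 0.10.2, igraph 0.11.9), with 2000 variable genes that left out the members and other imprinted genes, 30 principal components, 15 neighbours and Leiden resolution 1. Of 35 clusters, 31 were named "X-like" from lists of markers of 25 cell types. A name needed a marker score of at least 0.5, at least 3 markers detected in 25% of cells, and no larger share of another type among its 10 leading genes. The clusters had been looked at before this scoring rule was set.

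Counts were summed over the cells of a class and library and divided by all UMIs of that class (CPM). Poisson and conditional binomial 95% intervals are exact (scipy 1.17.1, pandas 2.3.3), cover counting error only, and assume that cells of a class do not differ. A gene at 0 was set to 3 counts for a ratio. Ratios were counted at 0.5 or less or 2 or more among genes of at least 5 CPM, the mean of the libraries. Classes needed 50 cells and clusters 20 cells per library. There was 1 library per group, so no test was run. The members, lists and markers were chosen with earlier results of these data known. All 10 members are named, with listed genes past a ratio of 2-fold at 20 CPM or more unamputated, and up to 3 most alike genes each. Coordinates come from GENCODE M21, in which 32158 of 32285 genes were matched. Alternatives covered the cell filter, doublets, clustering, naming, scaling, depth, pseudocount and gene minimum.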

Additional observations from a re-analysis of the deposited data

Results flagged for a closer look

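Some members stood lower than unamputated in a cell class and higher in another at the same time, with 20 or more UMIs in the pair. None of these differences was tested, and each rests on 1 library per time. Meg3 at 12 dpa was lower in hair matrix-like cells (5 UMIs against 43 unamputated) and higher in follicle keratinocyte-like cells (24 against 3 UMIs), where the ratio was 30.9. Meg3 at 17 dpa was lower in fibroblast-like cells (8771 against 14823 UMIs) and higher in suprabasal keratinocyte-like cells (22 against 11 UMIs), with a ratio of 6.68. Meg3 at 28 dpa was lower in hair matrix-like cells (5 against 43 UMIs) and higher in suprabasal keratinocyte-like cells (25 against 11 UMIs), with a ratio of 3.91. Plagl1 at 28 dpa was lower in tenocyte-like cells (65 against 1062 UMIs) and higher in dendritic-like cells (25 against 19 UMIs), with a ratio of 5.75. All of the higher values came from 25 or fewer UMIs, and Meg3 in suprabasal keratinocyte-like cells lay between 1.13 and 9.28 CPM, near the level in macrophage-like cells. The 3 unamputated UMIs of Meg3 in follicle keratinocyte-like cells were 1.03 CPM. That level and the lower hair matrix-like levels lay within the background range of Meg3, which reached 22.2 CPM.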

How the results depend on the processing

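The count of members at a ratio of 0.5 or less in fibroblast-like cells at 28 dpa lay between 6 and 9 over 20 alternatives, against 8 as reported. At 12 dpa the reported 1 became 4 with a stricter cell filter, 4 in cluster 0 alone, and 2 with Leiden resolution 0.5, with no gene minimum, or without cluster 13. It became 0 with a gene minimum of 20 CPM, which leaves out Igf2. At 17 dpa the reported 4 became 2 with Leiden resolution 2, with each cell named alone, and with the mean of per-cell CPM. It was 3 in 9 others, 5 with no gene minimum and 4 in the remaining 7, and Plagl1, from 0.392 to 0.535, was at 0.5 or less in 9 of the 20. Over all kept cells, the 2 at 12 dpa became 1 with a stricter filter or a pseudocount of 5 CPM, and 0 with a gene minimum of 20 CPM. The 8 at 28 dpa became 3 with the mean of per-cell CPM or with cells thinned to 2000 UMIs, and 5 with a pseudocount of 5 CPM. The 1 at 17 dpa was the same in all 10 alternatives. The cause of these shifts was not tested. The alternatives that use clusters 0, 13 and 17 apart and the best-class naming were chosen after seeing the data.

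At 28 dpa the fibroblast-like ratios ranged over the 20 alternatives from 0.0297 to 0.157 for Mest, 0.0252 to 0.271 for H19, 0.199 to 0.273 for Peg3, 0.114 to 0.285 for Plagl1, 0.215 to 0.410 for Cdkn1c, 0.382 to 0.451 for Grb10 and 0.322 to 0.419 for Meg3. Igf2 ranged from 0.0583 to 0.617 and Ndn from 0.501 to 1.14. No paired analysis was possible because each group had 1 library. Depth limits Igf2 and H19 most, with 86 and 19 UMIs in fibroblast-like cells at 28 dpa, and Dlk1 outside mural cells, where 0 to 29 UMIs were counted per stromal or endothelial class. Scaling by median-ratio size factors left the 28 dpa count at 8.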
